A study of Homo sapiens with 6 samples.

Results

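The heterogeneous nuclear ribonucleoproteins (hnRNPs) and their relatives coat new transcripts in the nucleus and steer splicing, export, stability and translation. The 34 genes described here are 21 hnRNP genes, SYNCRIP included, the 3 polypyrimidine tract-binding protein genes, the 4 poly(C)-binding protein genes, RALY, TARDBP, EWSR1, TAF15, CIRBP and RBM3. They were chosen by name from the 62700 genes in the gene table, by a rule that uses no measured value but with earlier results of these data known. All 34 passed the filter on low values.

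The cells were TCam-2, a human cell line grown from a testicular seminoma. Each group had 2 libraries: non-transduced cells (WT), cells transduced to overexpress FLAG-tagged GFP, and cells transduced to overexpress FLAG-tagged RBMXL3. RBMXL3 is a member of the RBMX family, whose founder RBMX is itself known as hnRNP G. The series names GFP and WT as negative controls for changes in expression and splicing, and both comparisons of RBMXL3 share its libraries. Nothing in the labels says that the libraries came from separate cultures or clones, so p-values measure only the spread between these libraries. The vector, its promoter and the time after transduction are not given in the sources used here.

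Members of this family bind short sequence motifs, often several proteins to the same transcript, and many also bind their own transcripts. Alternative exons that bring in or remove a premature stop are a known way in which such genes hold their level steady. TDP-43 (TARDBP), hnRNP L and the PTB proteins are textbook cases of proteins that act on their own transcripts, not all by such exons. A change in RNA level and a change in the mix of transcripts were therefore examined separately.

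The libraries held 17685680 and 21023355 recovered reads in RBMXL3, fewer than the 23080795 to 29318007 in the 4 controls. RBMXL3 itself had 0 reads in all 4 controls and 84 and 68 reads in the RBMXL3 libraries. RBMX was not called, with 11332 to 12144 normalised reads in the controls and 12450.0 and 11572 in RBMXL3. Of the fixed cell type markers, 9 of 9 seminoma genes passed the filter, with sums of 108190.0 to 126585 normalised reads in controls and 112367 and 112786 in RBMXL3. Within that list POU5F1 was above every control in RBMXL3 (41233 and 40115 against at most 34996), and NANOG, PRDM1, KIT, PDPN, SALL4 and LIN28A were below every control. Of the 3 leukocyte genes, 0 passed: CD3E was at 0 in all libraries and PTPRC reached at most 1.06. CD14 was at 6.36 to 10.2 in controls and at 12.9 and 23.5 in RBMXL3. Of the fibroblast genes 3 of 4 passed, and of the Sertoli genes 2 of 3. COL1A2 had 8093 to 12709 in controls and 11331 and 12167 in RBMXL3. COL1A1 and LUM were above every control in RBMXL3, LUM at 425 and 421 against 65.4 to 179. The embryonal carcinoma genes summed to 4729 to 5715 in controls and to 6946 and 7203 in RBMXL3, nearly all of it DPPA4 (4629.5 to 5614, then 7069.6 and 6789), and the Sertoli genes to 173 to 237 and to 297 and 323. The part of these differences in the results below was not tested, and in bulk RNA fewer cells of a kind and less RNA per cell cannot be told apart.

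Sequences from some of the transcript models described below are shown first. They are exon segments read from the reference genome (GRCh38, GENCODE 29), all annotated as coding, with the segment in capitals and up to 15 neighbouring bases of the spliced transcript in lower case. They were picked after the transcript values had been seen. The tests below are on whole models, so no segment was tested by itself. The HNRNPLL segment of 102 bases is exon 5 of HNRNPLL-209 (chromosome 2, 38582072 to 38582168, minus strand) with the first 5 bases of exon 6 (38581981 to 38581985), keeps the reading frame, and is missing from HNRNPLL-204.
HNRNPLL: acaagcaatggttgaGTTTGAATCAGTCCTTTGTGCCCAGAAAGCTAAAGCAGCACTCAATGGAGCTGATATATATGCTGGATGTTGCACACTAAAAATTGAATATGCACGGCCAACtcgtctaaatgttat
The HNRNPL segment of 88 bases is the annotated first exon of HNRNPL-212 (chromosome 19, 38851068 to 38851155, minus strand), a transcript seen in the RBMXL3 libraries and in no control. It is annotated as coding from its first base, so the model may be incomplete at its start. Whether the exon occurs only in this model was not tested.
HNRNPL: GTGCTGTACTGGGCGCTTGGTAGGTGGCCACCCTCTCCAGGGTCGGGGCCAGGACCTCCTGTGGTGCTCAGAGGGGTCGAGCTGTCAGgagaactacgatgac
The TARDBP segment of 164 bases (chromosome 1, 11016844 to 11017007, plus strand) is exon 3 of the coding TARDBP-230. TARDBP-203 skips it, and its length is not a multiple of 3, so skipping shifts the reading frame.
TARDBP: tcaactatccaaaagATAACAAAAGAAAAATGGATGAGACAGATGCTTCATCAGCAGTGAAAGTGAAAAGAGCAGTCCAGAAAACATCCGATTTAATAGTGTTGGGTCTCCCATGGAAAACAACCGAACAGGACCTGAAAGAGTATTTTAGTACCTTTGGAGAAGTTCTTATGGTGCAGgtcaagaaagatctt
The PTBP1 segment of 78 bases (chromosome 19, 805492 to 805569, plus strand) is the cassette exon that PTBP1-203 holds and PTBP1-201 lacks. It is shown because the balance of that pair of models overlapped between the groups.
PTBP1: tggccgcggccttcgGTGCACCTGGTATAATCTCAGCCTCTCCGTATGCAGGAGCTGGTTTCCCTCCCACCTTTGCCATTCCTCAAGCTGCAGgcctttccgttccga

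Of the 34 members, 15 had a mean of at least 10000 normalised reads, a level reached by 364 of all genes tested, and 3 were under 1000. Together they took 1.72% to 1.92% of all reads in the controls and 1.72% and 1.76% in RBMXL3. By summed TPM, the deposited transcript abundance scaled for transcript length, HNRNPA1 was highest at a mean of 2798 TPM over the 6 libraries. HNRNPC followed at 1245 and HNRNPA2B1 at 1105, while PTBP2, the neuronal PTB paralog, was lowest at 4.14 and PCBP3 next at 7.44. HNRNPA1, a splicing repressor and export factor, had 76398 and 66128 normalised reads in the WT libraries, 71424 and 79029.5 in the GFP libraries, then 64301 and 63936 in RBMXL3. Both RBMXL3 libraries were thus below the 4 controls, but the changes of -0.23 against GFP and -0.15 against WT (log2, SE 0.13) did not pass the test (limma adjusted p 0.247 and 0.425).

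In the gene table, 9 of the 34 members were called in RBMXL3 against GFP at a limma adjusted p under 0.05, 4 higher and 5 lower. Of all 14292 genes tested, 20.9% were called, 10.5% higher and 10.4% lower. Against WT, 17 members were called, 4 higher and 13 lower, where 29.9% of all genes were called, 14.6% higher and 15.3% lower. The 9 members called against GFP were all called against WT in the same direction, where 13.7% of all genes passed in both comparisons, 6.88% higher and 6.86% lower. The median member changed by -0.09 against GFP and -0.16 against WT (log2), and the median of all genes tested by 0.00087 and -0.014. Between the controls, limma called 0 members and 3.67% of all genes, with 6 members and 3190 of all genes at an unadjusted p under 0.05. On the recovered reads edgeR called 0 and DESeq2 1 there, PTBP3, lower in GFP by -0.37 (adjusted p 0.0477).

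These counts, and those over all genes, rested on few libraries. Without RBMXL3 replicate 1, 2 members were called against GFP, 2 against WT and 0 against both, and without RBMXL3 replicate 2 the counts were 2, 1 and 0. Over all 14292 genes the counts were 840, 1637 and 555 without the first and 658, 1428 and 435 without the second. Without WT replicate 1 or 2, 3 and 10 members were called against WT, 6 and 6 against GFP, and 2 and 4 against both. In these fits a group with 1 library is taken to vary like the others.

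**Figure D1:**
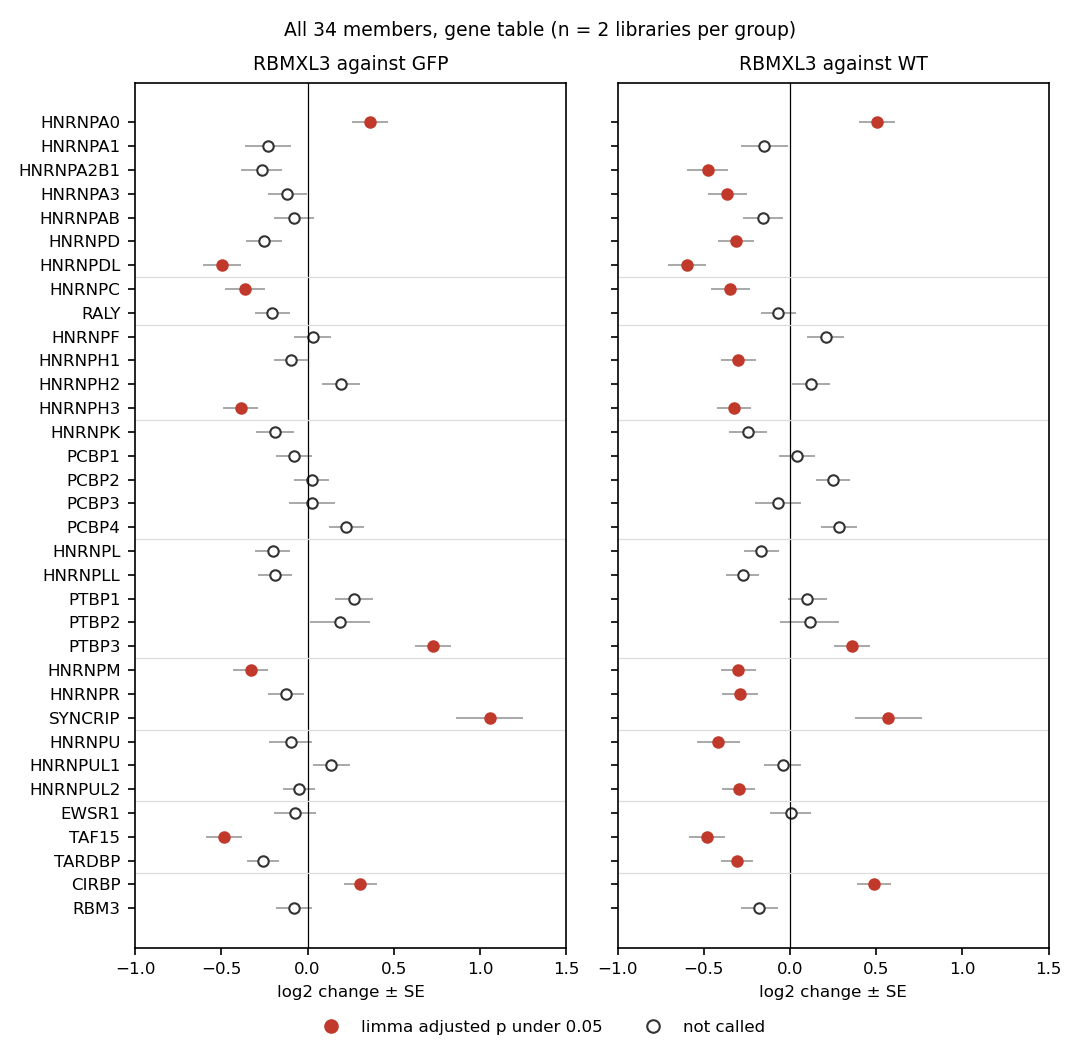
Change of each of the 34 members in RBMXL3 against GFP (left) and WT (right) on the log2(value + 1) scale of the gene table, with the SE from limma. Filled points are called, and grey lines divide the functional groups. SYNCRIP and PTBP3 lie farthest to the right, and HNRNPDL and TAF15 farthest to the left, in both panels except that HNRNPA0 and CIRBP pass PTBP3 against WT.

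Against GFP the 2 largest rises were in SYNCRIP and PTBP3. SYNCRIP encodes hnRNP Q, a cytoplasmic and nuclear protein of the M, R and Q type (ENSG00000135316.20, chromosome 6, 85607785 to 85643792, minus strand). It had 1281 and 1491 normalised reads in the WT libraries, 728 and 1312 in the GFP libraries, then 2111 and 2014 in RBMXL3. Both RBMXL3 libraries were above all 4 controls, and the GFP libraries differed most from each other. The changes were 1.06 and 0.57 (log2, SE 0.19; limma adjusted p 0.00321 against GFP and 0.0428 against WT). The change against GFP was 0.64 without GFP replicate 1 and 1.47 without GFP replicate 2, and was called in both fits. DESeq2 did not call the change against WT (adjusted p 0.219).

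PTBP3, the PTB paralog found widely outside neurons (ENSG00000119314.16, chromosome 9, 112217716 to 112333667, minus strand), had 3258 and 2865 normalised reads in the WT libraries, 2217 and 2516 in the GFP libraries, then 3989 and 3869.9 in RBMXL3. It rose by 0.73 against GFP and 0.36 against WT (log2, SE 0.10; limma adjusted p 0.000919 and 0.0213), with no overlap between RBMXL3 and the controls. Its paralogs were not called: PTBP1 changed by 0.27 and 0.10 and PTBP2 by 0.19 and 0.11.

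HNRNPA0, an A/B-type protein that binds AU-rich elements (ENSG00000177733.7, chromosome 5, 137745651 to 137754376, minus strand), had 6037 and 6521 normalised reads in the WT libraries, 6443 and 7435 in the GFP libraries, then 8809 and 9009 in RBMXL3. It rose by 0.36 and 0.50 (log2, SE 0.10; limma adjusted p 0.0267 and 0.00367). CIRBP, induced by mild cold (ENSG00000099622.14, chromosome 19, 1259384 to 1274880, plus strand), had 4385 and 4363 in the WT libraries, 4685 and 5249.7 in the GFP libraries, then 6117 and 6160.5 in RBMXL3. It rose by 0.31 and 0.49 (SE 0.10; limma adjusted p 0.0397 and 0.00304). In both genes the RBMXL3 libraries lay above the 4 controls. RBM3, the other cold-inducible member, was not called, with changes of -0.08 and -0.18.

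Among the members that fell, HNRNPDL and TAF15 changed most. HNRNPDL encodes the hnRNP D-like protein (ENSG00000152795.18, chromosome 4, 82422564 to 82430408, minus strand). It had 13017 and 10689.9 normalised reads in the WT libraries, 11104 and 10808 in the GFP libraries, then 7679 and 7863 in RBMXL3. The changes were -0.49 and -0.60 (log2, SE 0.11; limma adjusted p 0.00895 and 0.00196), with both RBMXL3 libraries below every control. TAF15, a FET protein that also associates with the TFIID complex (ENSG00000270647.7, chromosome 17, 35713791 to 35864615, plus strand), had 5521 and 5191 in the WT libraries, 5814 and 4932 in the GFP libraries, then 3766 and 3883 in RBMXL3. It fell by 0.48 against either control (SE 0.10; limma adjusted p 0.00729 and 0.00476), and its groups did not overlap. The FET relative EWSR1 was not called, with changes of -0.07 and 0.00.

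HNRNPC, which binds uridine tracts and is known to keep Alu exons out of messages (ENSG00000092199.19, chromosome 14, 21209136 to 21269494, minus strand), had 27419 and 24383 normalised reads in the WT libraries, 24705 and 27617 in the GFP libraries, then 20548 and 20094 in RBMXL3. It fell by 0.36 and 0.35 (log2, SE 0.11; limma adjusted p 0.0399 and 0.0366). HNRNPH3, of the G-tract-binding F/H type (ENSG00000096746.18, chromosome 10, 68331174 to 68343191, plus strand), had 6751 and 6005 in the WT libraries, 6920.3 and 6391 in the GFP libraries, then 5102 and 5045 in RBMXL3. It fell by 0.39 and 0.33 (SE 0.10; limma adjusted p 0.0171 and 0.0272). HNRNPM, a splicing regulator that binds GU-rich sequence (ENSG00000099783.13, chromosome 19, 8444767 to 8489114, plus strand), had 15371 and 14774 in the WT libraries, 15977 and 14751 in the GFP libraries, then 11958 and 12487 in RBMXL3. It fell by 0.33 and 0.30 (SE 0.10; limma adjusted p 0.037 and 0.0402). In all 3 genes the RBMXL3 libraries lay below the 4 controls.

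**Figure D2:**
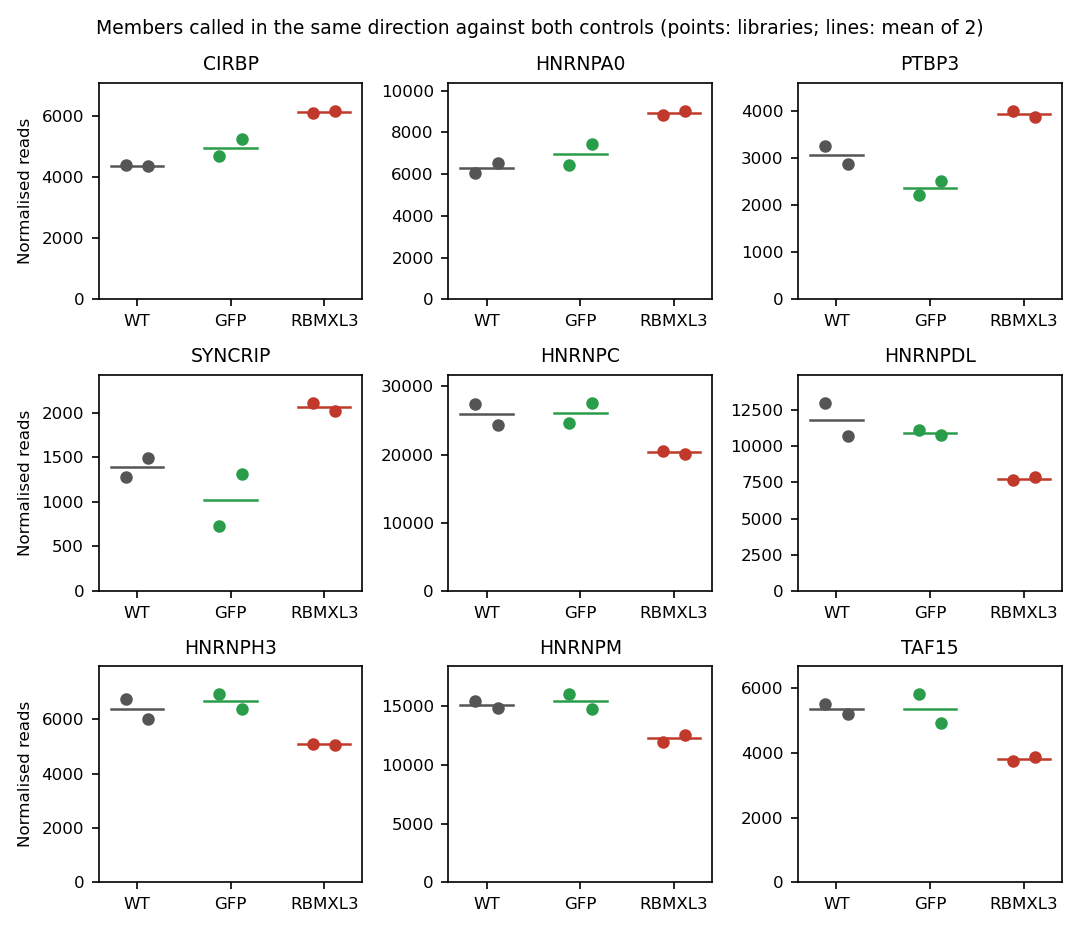
Normalised read counts of the 9 members called in the same direction against both controls, by library (points) with the mean of the 2 libraries (line), for WT, GFP and RBMXL3. In each panel both RBMXL3 libraries lie outside the range of the 4 controls, from 2014 and 2111 against at most 1491 in SYNCRIP to 20094 and 20548 against at least 24383 in HNRNPC.

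The 8 members called against WT and not against GFP were all lower, with log2 changes of -0.29 to -0.48. HNRNPA2B1, known for RNA sorting and as a reader of modified RNA, had 54709 and 49104 normalised reads in the WT libraries, 44581 and 44862 in the GFP libraries, then 36240.2 and 38149.8 in RBMXL3. Its change against WT was -0.48 (SE 0.12; limma adjusted p 0.0104), and against GFP it was -0.27 (adjusted p 0.132). HNRNPU, a nuclear scaffold protein, had 40083 and 34562 in the WT libraries, 27649.7 and 32122 in the GFP libraries, then 27915 and 27815 in RBMXL3. Its RBMXL3 libraries overlapped those of GFP, and its changes were -0.42 against WT (SE 0.12; adjusted p 0.024), -0.10 against GFP and -0.32 between GFP and WT. The others were HNRNPA3, HNRNPD, HNRNPH1, HNRNPR, HNRNPUL2 and TARDBP. For HNRNPR the change of -0.29 became -0.17 without WT replicate 1 (limma adjusted p 0.334).

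By functional group, the 7 A/B-type genes, the largest group, had the most calls against WT, with 1 higher and 4 lower. The 3 genes of M, R and Q type had 1 higher and 2 lower against WT, and 1 higher and 1 lower against GFP. The 3 U-type genes had 2 lower against WT and 0 against GFP, and the FET and TDP-43 genes had 2 of 3 lower against WT and 1 against GFP. The 5 KH-domain genes, which bind cytosine-rich sequence (HNRNPK and PCBP1 to PCBP4), had 0 calls against either control, with medians of 0.02 and 0.04. Over all 34 members, 6 had both RBMXL3 libraries above all 4 controls (the 4 that were called, HNRNPH2 and PCBP4) and 15 had both below. The same held for 22.5% and 23.6% of all genes tested.

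The count of lower calls depended on the level of the genes and on the scaling. In the deposited values, the 364 genes with a mean of at least 10000 normalised reads had a median change of -0.24 against GFP and -0.19 against WT, and 29.7% and 28.8% of them were called lower. Of the 15 members in that range, 3 and 8 were called lower, with medians of -0.12 and -0.30. The level ranges were chosen after the data had been seen.

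With quantile normalization, which gives each library the same distribution of values, 5 members were called higher and 3 lower against GFP, and 8 higher and 2 lower against WT. Of all genes, 9.66% were then called higher and 10.2% lower against GFP, and 13.9% and 13.8% against WT. The member medians were then 0.09 and -0.04, and those of the abundant genes -0.02 and -0.03. TAF15 (-0.40 and -0.37) and HNRNPDL (-0.37 and -0.49) were still lower against both controls. HNRNPC (-0.08 and -0.17) and HNRNPM (-0.16 and -0.15) were not called against either control, and HNRNPH3 was called against GFP only. The 4 rises were called under both scalings, and PTBP1 joined them with changes of 0.50 and 0.31 (limma adjusted p 0.0072 and 0.0413).

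**Figure D3:**
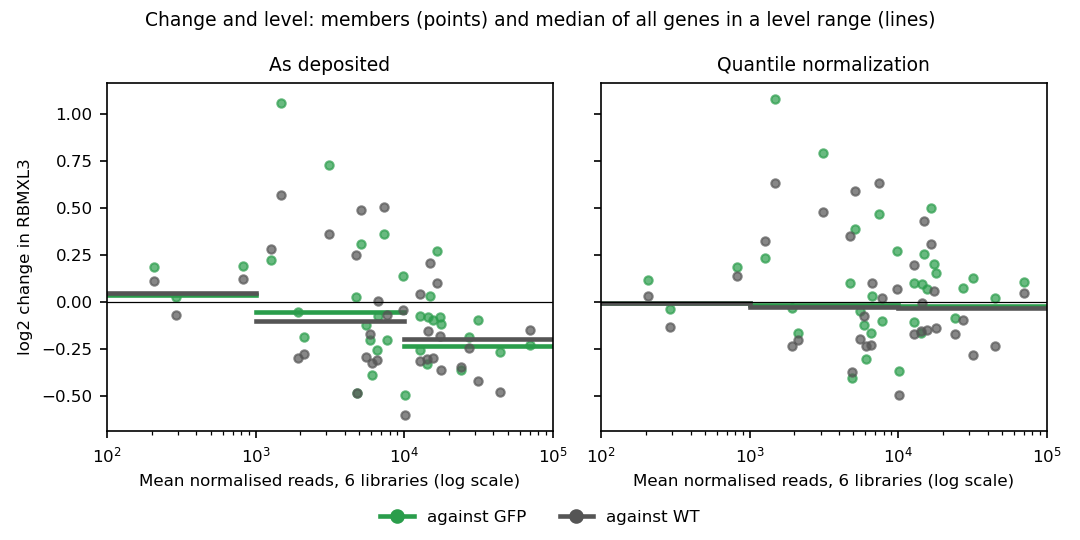
Log2 change of the members in RBMXL3 (points) against their mean normalised reads over 6 libraries (log axis), in the deposited scaling (left) and after quantile normalization (right). Horizontal lines are medians of all genes under 1000, from 1000 to 10000 and at least 10000 normalised reads. The lines fall to -0.24 and -0.19 on the left and stay within 0.04 of zero on the right.

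Other pre-mRNA-binding proteins were counted for comparison from a list of 40 genes, of which 39 were tested. Of these, 8 were called higher and 5 lower against GFP, 6 higher and 9 lower against WT, and 4 and 5 in the 2 directions against both. The list's medians were 0.07 and -0.01.

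The transcript table gave a different picture for 2 members, with TPM summed only over the transcripts that could be matched to GENCODE. For SYNCRIP the summed TPM changed by -0.18 against GFP and -0.80 against WT (log2; limma adjusted p 0.542 and 0.0385), against rises in the read counts. The short coding model SYNCRIP-203 of 610 bases held 93.8%, 89.0%, 99.6% and 89.9% of the gene's TPM in the 4 controls and 76.5% and 72.9% in RBMXL3. The long SYNCRIP-201 of 6449 bases had 6.83, 9.32, 0 and 7.50 TPM in the controls and 14.1 and 14.5 in RBMXL3. A long transcript yields more reads per TPM, so at these lengths the 2 tables would weigh the models differently. The deposited SYNCRIP-203 is a later version than the one in GENCODE 29, so its own length is not known here.

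For HNRNPA3 the TPM summed over its 5 matched models rose by 1.06 against GFP and 0.79 against WT (limma adjusted p 0.0211 and 0.0249). The gene's read counts changed by -0.12 and -0.36. Whether the gene has further models without a match, and whether those changed, was not tested. HNRNPA3-203, a coding model of 643 bases, went from 1.66, 0, 8.93 and 0 TPM in the controls to 39.1 and 50.8 in RBMXL3. Reads per TPM and base in HNRNPA3 were 3.59 times the median of all genes, whose quartiles were 0.863 and 1.11, a ratio looked at after the values were seen. Other members far from the median on this ratio were PCBP2 at 0.219, HNRNPUL2 at 0.343 and HNRNPK at 1.83. For summed TPM over all members, 2 were called higher and 0 lower against GFP, and 2 higher and 3 lower against WT. Of all genes, 5.46% were called higher and 1.47% lower against GFP by summed TPM, and 6.97% and 4.52% against WT. That scaling moved the median of all genes to 0.13 against GFP.

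**Figure D4:**
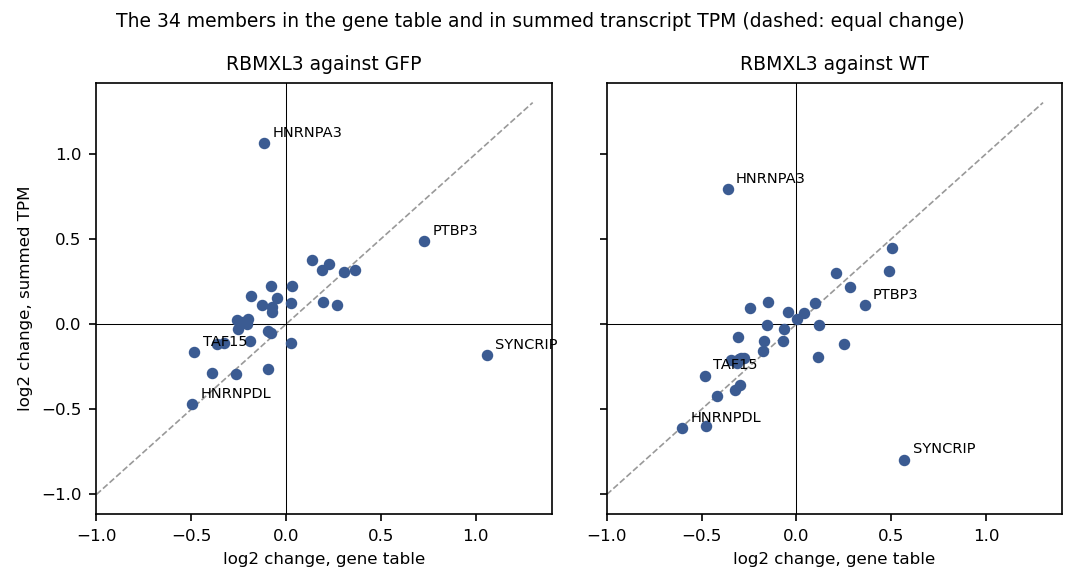
Log2 change of each member in the gene table (horizontal) and in summed TPM (vertical), against GFP (left) and WT (right), with the line of equal change dashed. SYNCRIP, at 1.06 and -0.18 on the left, and HNRNPA3, at -0.12 and 1.06, lie far from the line.

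Transcript usage, the mix of transcripts within a gene, was tested with limma's diffSplice, which asks whether a transcript changed differently from the other transcripts of its gene. Of the 30 members with at least 2 testable transcripts, 13 were called against GFP and 17 against WT, where 12% of all 8882 genes were called in each. Against both controls 11 members were called and 7.33% of all genes, and between the controls 3 members and 1.72% of all genes. The 11 were CIRBP, HNRNPA2B1, HNRNPC, HNRNPD, HNRNPDL, HNRNPF, HNRNPH1, HNRNPH3, HNRNPL, RALY and TARDBP. HNRNPH1 was also called between the controls.

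Abundant genes with many transcripts were called more often. Among the 864 genes with a mean of at least 100 TPM and at least 5 tested transcripts, minima set after the data were seen, 19.3% were called against both controls, and 11 of the 22 members there. A stricter test on each transcript's share of its gene's TPM called 2 members against both controls, HNRNPDL and HNRNPF, and 1.98% of all genes. The diffSplice test assumes 1 spread for all transcripts of a gene. TPM per transcript is an estimate that bears on usage and not on splice junctions, and its depth is unknown. Without either RBMXL3 replicate 8 or 9 members were called against both controls, and without WT replicate 1 or 2 they were 8 and 10.

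The largest shift in share was in HNRNPLL, the hnRNP L-like protein known for control of CD45 exons in lymphocytes. HNRNPLL-204, without the in-frame segment printed above, made up 7.18% and 9.46% of the gene's TPM in the WT libraries, 7.997% and 5.42% in the GFP libraries, then 43.2% and 50.3% in RBMXL3. HNRNPLL-209, with the segment, made up 41.4% and 49.1%, 50.6% and 50.2%, and 20.7% and 21.7%. The 2 models also differ outside the segment, with 4173 bases in HNRNPLL-209 and 1908 in HNRNPLL-204. Use of the segment itself was not tested. Of the 2 models together, HNRNPLL-204 took 9.74% to 16.1% in controls and 67.6% and 69.9% in RBMXL3. For this transcript the 2 tests split: the test of shares called HNRNPLL-204 (limma adjusted p 0.0391 and 0.045), and diffSplice did not (adjusted p 0.149 and 0.236). As a gene, HNRNPLL was called by neither test. The gene's adjusted p was 0.0561 and 0.0649 by the test of shares and 0.231 and 0.301 by diffSplice. The gene's read counts were 2065 to 2401 in the controls and 1894 and 1912 in RBMXL3 and were not called.

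HNRNPL, which binds CA-rich sequence, gained a model that was listed in no control. HNRNPL-212, which in the annotation begins with the 88-base exon printed above, was listed at 0 TPM in all 4 controls. In RBMXL3 it was at 98.7 and 53.3 TPM, or 27.3% and 13.9% of the gene. TPM does not show where its transcripts start. HNRNPL-210 fell from 53.9% to 65.4% in the controls to 30.2% and 39.9%, and HNRNPL-207, annotated as a retained intron, from 9.57% to 26.3% in controls to 6.48% and 5.84%. The diffSplice test called all 3 against both controls, with limma adjusted p of 3.75e-09 and 2.65e-09 for HNRNPL-212. The test of shares gave 0.0616 and 0.0631 for it, so that test did not call it.

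HNRNPF, an F/H-type protein, was called by both tests. HNRNPF-206, annotated as a processed transcript of 715 bases, was listed at 0 TPM in all 4 controls and at 35.8 and 42.6 TPM in RBMXL3, or 9.02% and 10.3% of the gene. The limma adjusted p was 1.34e-06 and 2.42e-06 by diffSplice and 0.0140 and 0.0126 by the test of shares. The coding HNRNPF-204 moved the other way, from 8.60% to 12.1% of the gene in controls to 3.36% and 3.96%. HNRNPDL, named here because it was the other gene called by both tests, gained HNRNPDL-208, a coding model of 4139 bases with 0 TPM in each control library and 5.42 and 6.77 in RBMXL3. HNRNPDL-205, annotated for nonsense-mediated decay, went from 11.2 to 17.8 TPM in controls to 0.536 and 0. Both were rare: HNRNPDL-208 made up 1.56% and 1.81% of the gene in RBMXL3, and HNRNPDL-205 2.31% to 3.31% in controls. Another decay model, HNRNPDL-202, went from 3.27% to 4.03% in controls to 5.21% and 5.20%. All decay models of HNRNPDL together took 5.58% to 7.32% in controls and 5.36% and 5.28% in RBMXL3. That share was not called (limma adjusted p 0.752 and 0.987).

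TARDBP, the gene of TDP-43, showed opposite shifts in 2 models. TARDBP-203, annotated for nonsense-mediated decay, skips the 164-base exon printed above and made up 8.98% and 7.43% of the gene's TPM in the WT libraries, 17.0% and 8.83% in the GFP libraries, then 1.98% and 0% in RBMXL3. TARDBP-215, a processed transcript of 584 bases, made up 0%, 1.12%, 0% and 2.21% in the controls and 10.3% and 13.7% in RBMXL3. The diffSplice test called both models (limma adjusted p 5.18e-05 and 0.000449 for TARDBP-203, 0.000517 and 0.000113 for TARDBP-215), and the test of shares called neither. Without RBMXL3 replicate 2, the call of TARDBP-203 against WT was lost (adjusted p 0.11).

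**Figure D5:**
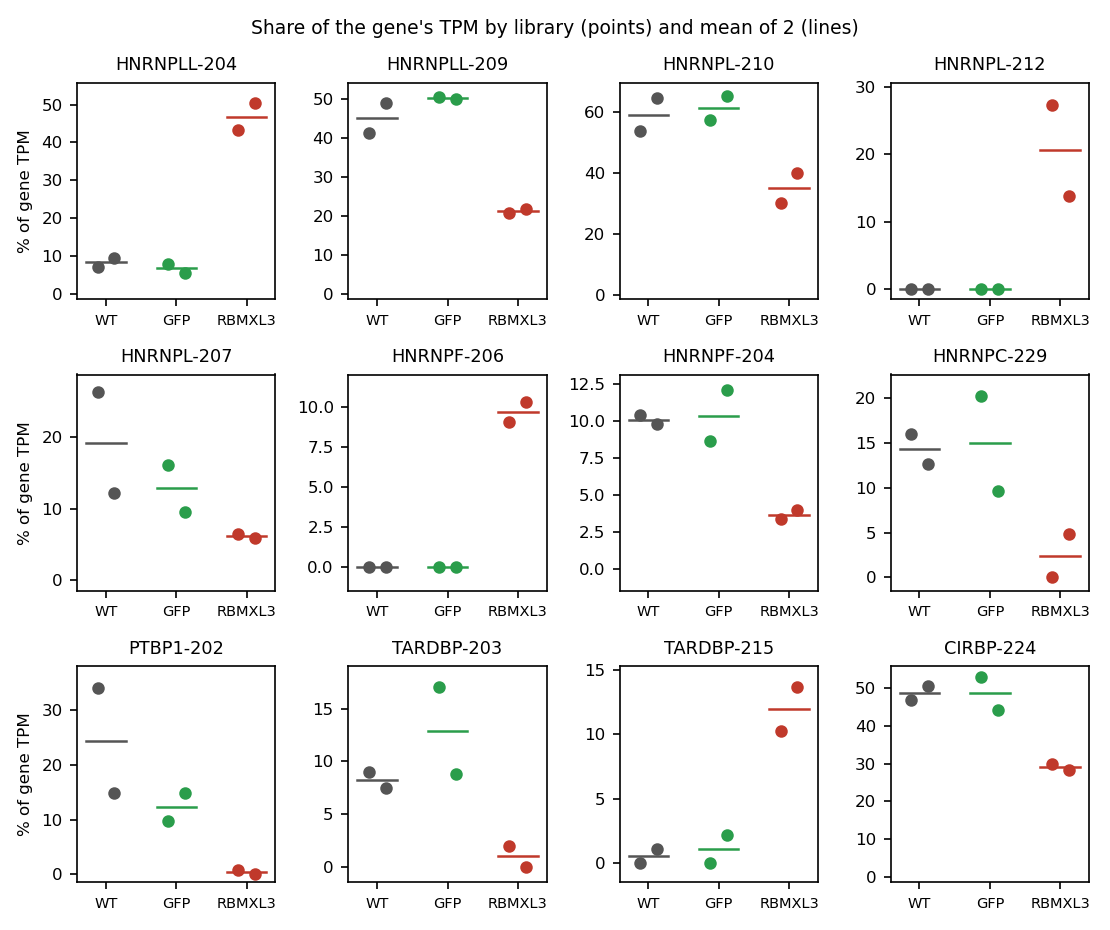
Share of the gene's TPM taken by 12 member transcripts, by library (points) with the mean of the 2 libraries (line), for WT, GFP and RBMXL3. HNRNPLL-204 goes from at most 9.46% in the controls to 43.2% and 50.3%, and HNRNPL-212 and HNRNPF-206 are at 0% in all 4 controls.

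CIRBP, which rose in reads, had 2 main coding models whose shares did not overlap between RBMXL3 and the controls but did not pass either test. CIRBP-224 of 532 bases made up 44.3% to 52.9% of the gene's TPM in controls and 29.9% and 28.3% in RBMXL3, and CIRBP-201 of 1328 bases 34.7% to 46.5% and then 59.1% and 60.3%. At a mean TPM of at least 5 the diffSplice effect of CIRBP-224 turned positive. The gene's usage call came from the rare models CIRBP-204 and CIRBP-225. In PCBP3, a KH-domain gene at low level, PCBP3-206 fell from 40.2% to 55.4% in controls to 23.8% and 20.5%, called by diffSplice against GFP (limma adjusted p 0.04) and not against WT (0.0929).

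HNRNPC-229, a coding model of 698 bases, made up 9.71% to 20.2% of HNRNPC TPM in controls and 0% and 4.84% in RBMXL3. HNRNPH1-239 of 831 bases had 16.1 to 56.0 TPM in controls and was listed at 0 in both RBMXL3 libraries. HNRNPH3-209 went from 8.97% to 12.9% of its gene in controls to 4.51% and 0%, and RALY-207, annotated as a retained intron, from 6.39% to 11.4% to 1.41% and 3.09%. All 4 were called by diffSplice against both controls, and none by the test of shares. PTBP1-202 went from 34.01%, 14.8%, 9.80% and 14.9% in the controls to 0.83% and 0%, called by diffSplice as a transcript but not as a gene against GFP (adjusted p 0.144).

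The cassette exon of PTBP1, whose skipping is known to weaken the protein as a splicing repressor, was compared in a pair of models. PTBP1-203 took 39.6% and 60.6% of the TPM of PTBP1-203 and PTBP1-201 in the WT libraries, 61.0% and 59.1% in the GFP libraries, then 54.7% and 54.5% in RBMXL3. For this pair the RBMXL3 values lay within the range of the controls. The pair leaves out PTBP1-202, which had 40.6 to 124 TPM in the controls and 3.07 and 0 in RBMXL3. Whether use of the exon differed over all models of the gene was not tested. Of the whole gene, PTBP1-203 took 22.6% to 45.4% in the controls and 48.5% and 50.3% in RBMXL3, a change that neither test called.

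In all, 19 member transcripts passed against both controls in the same direction, 8 rising and 11 falling. Of the 8 that rose, 5 were listed at 0 TPM in all 4 controls, and of the 11 that fell, 2 were listed at 0 in both RBMXL3 libraries. Their median lengths were 883 bases for the higher and 900 for the lower models. Of the 36184 transcripts tested over all genes, 353 passed as higher. Their median length was 1757 bases, and 89 of them were listed at 0 in all 4 controls. Another 536 passed as lower, at a median of 867.5 bases, of which 249 were listed at 0 in both RBMXL3 libraries. How many member transcripts were tested is not given here, so the 19 cannot be set against these counts as a rate. The RBMXL3 libraries were also the shallowest, and the part of depth in these counts was not tested.

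Unproductive transcripts were also examined as a class. The share of TPM in models annotated for nonsense-mediated decay could be tested in 19 members and that in retained-intron models in 23, and limma called 0 members in any comparison. Few genes were called at all. For decay models these were 29 of 4100 genes against GFP, 24 against WT and 12 between the controls. For retained introns they were 8, 32 and 9 of 5543 genes, so 0 calls among the members do not set them apart. At an unadjusted p under 0.05 there were 2 members against GFP and 1 against WT for decay models, and 3 and 4 for retained introns. The share of all genes at that level is not given here. The decay-annotated share of HNRNPA1 TPM was 26.3% and 33.2% in the WT libraries, 34.03% and 32.7% in the GFP libraries, then 43.1% and 45.2% in RBMXL3 (limma adjusted p 0.372 and 0.264). The RBMXL3 values were above all controls, and the change was not called.

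Many of these genes have processed copies in the genome, whose reads could be mistaken for theirs. The gene table listed 130 such copies of 16 members, of which 7 passed the filter, and the summed copies reached at most 0.81% of the parent's normalised reads in any library. Of opposite-strand genes, 2 lie mostly under member exons, COX20 under HNRNPU and HNRNPK-AS1 under HNRNPK, and held 1.02% to 1.63% of the reads of those 2 members. PCBP1-AS1, also on the opposite strand, covers 52.2% of PCBP1 exon bases and had 342 to 505 normalised reads. On the same strand, HNRNPUL2-BSCL2 covers 44.1% of HNRNPUL2 exon bases, and a gene annotated as a processed transcript 13.8% of PCBP2. Both same-strand genes were listed at 0 in every library. The part of these overlaps in the members' counts was not tested. Whether the counting used strand is not given in the sources used here.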

How the data were processed

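RNA libraries from polyA RNA were prepared with a stranded kit from 2 samples of each of 3 groups, per the labels' protocols. The submitters' processing notes name Trim Galore 0.6.10, STAR 2.7.11a, DESeq2, Salmon 1.10.2 and GRCh38; the counting settings and annotation are not given in the sources used here. The deposited gene table is named CPM, but each library's signal values were, as deposited, whole reads divided by 1 size factor: all 145320 nonzero values came out whole within 0.001 reads. They are printed as normalised reads. The authors' second file holds TPM per transcript, named by transcript model as deposited.

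For tests the gene values were divided by a common factor of 23.9, filtered at 1 or more in at least 2 libraries, and fitted as log2(value + 1) with limma 3.58.1 (R 4.3.3), with an intensity trend and all 6 libraries in 1 fit. Fold changes are on that scale and understate low genes. Adjusted p-values are Benjamini-Hochberg over the 14292 genes tested, called under 0.05. edgeR 4.0.16 and DESeq2 1.42.0 were run on the recovered reads as alternatives. Transcripts matched to GENCODE 29 (80.04% of 251955) with at least 1 TPM in at least 2 libraries were tested for usage with diffSplice on log2(TPM + 1), 36184 transcripts of 8882 genes. Shares and summed TPM are of the matched transcripts only. Transcripts were matched without their version, which differed at least for SYNCRIP-203, HNRNPLL-209 and HNRNPH1-239. Lengths and exon segments are those of GENCODE 29. The alternative test of shares used the arcsine square root with limma and a Simes p per gene. Checks of the fits used made-up values with 200 changed genes in each. At a log2 change of 1 against both controls, limma recovered 87% of them, edgeR 86% and DESeq2 76%, with 0 false calls each. For usage, at a log2 change of 1.5, diffSplice recovered 100% with 2 false calls when transcripts of a gene shared 1 spread. The test of shares recovered 97% there, with 1 false call. When each transcript had its own spread, diffSplice recovered 99% and gave 42 false calls against both controls.

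The members, the list of other RNA-binding proteins and the markers were chosen with earlier results of these data known. Genes were given in full if called in the same direction against both controls, called between the controls, or among the 3 highest by TPM. For calls against 1 control, the 2 largest changes were named. Transcripts were named if among the 8 largest shifts in share against both controls, for genes with a summed TPM of 5 or more throughout, or if called by diffSplice against both with a shift of at least 5 percentage points; models named outside this rule (of HNRNPDL, HNRNPA3, PTBP1, SYNCRIP, CIRBP and HNRNPA1) were chosen after their values were seen. Coordinates are from GENCODE 29 on GRCh38. Same-numbered libraries did not deviate together (correlations of -0.156, 0.034 and -0.094), so the numbers were not used as pairs. No p-value was computed over the members alone.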

Additional observations from a re-analysis of the deposited data

How the results depend on the processing

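With 2 libraries per group, depth and replication limit the counts, and the cause of each change below was not tested. Against GFP the 9 called members became 1 with no filter on low values, where more genes enter the adjustment, and 2 by summed TPM, and ranged from 2 to 13 when each library was left out in turn. Against WT the 17 became 4 with no filter, 10 with quantile normalization, 5 by summed TPM, 9 by length-weighted TPM and 10 with a replicate block, and 1 to 21 leaving out each library. Against both controls the 9 became 0 with no filter, 1 by summed TPM and 5 by length-weighted TPM, and 0 to 11 leaving out each library. Between the controls the 0 became 1 by DESeq2 and 0 to 6 leaving out each library. Length-weighted TPM, which weights each transcript by its length, was chosen after seeing the data. Over all genes, calls against GFP went from 2986 to 950 with no filter and 988 by summed TPM. Against WT they went from 4271 to 2327 with no filter, 3958 with quantile normalization, 1638 by summed TPM and 3194 by length-weighted TPM. Against both they went from 1964 to 673 with no filter, 655 by summed TPM and 1385 by length-weighted TPM. With the replicate block they were 2386, 3697 and 1566. With the replicate block 6 members were called against GFP and 6 against both; the numbers do not pair the libraries.

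For usage, the test of shares called 268 of all genes against GFP, 283 against WT, 88 between the controls and 176 against both. The diffSplice counts were 1069, 1066, 153 and 651. Of the members, the test of shares called 2 against GFP, 2 against WT, 0 between the controls and 2 against both, in place of 13, 17, 3 and 11. Leaving out each library gave 8 to 15, 9 to 21, 3 to 6 and 8 to 14. Calls of decay or retained-intron shares, added over both classes and all 3 comparisons, went from 0 to a range of 0 to 4 leaving out each library. Direction reversed for HNRNPA3 against WT (0.79 by summed and 0.63 by length-weighted TPM), for SYNCRIP by summed TPM (-0.18 and -0.80), and for the diffSplice effect of CIRBP-224, measured against its gene's other transcripts, at a mean TPM of at least 5 (0.22 and 0.31). Of the 26 called changes of single members, 25 were called by edgeR, 23 by DESeq2, 25 with a pseudocount of 0.1, 13 with quantile normalization and 16 with the replicate block. Without RBMXL3 replicate 1 or 2, 4 and 3 were, and without either GFP library 26.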

Other observations

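A relative of the members stood out after the values were seen. HNRNPA1L3, an HNRNPA1-like gene, had 111 and 143 normalised reads in the WT libraries, 123 and 126 with GFP and 272 and 245 with RBMXL3. It rose by 0.93 against GFP and 0.91 against WT (log2, SE 0.15; limma adjusted p 0.0018 and 0.00105), and both RBMXL3 libraries lay above the controls. Its sequence is close to that of HNRNPA1, so the value is uncertain: how reads common to both were counted is not given in the sources used here. HNRNPK-AS1, antisense to HNRNPK, had 15.7 to 33.9 normalised reads in the controls and 1.29 and 0 in RBMXL3.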
